A study of Mus musculus with 6 samples.

Results

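Jarid2 and the genes of Polycomb repressive complex 2 (PRC2) were examined in activated mouse CD4 T cells that lack the microRNA miR-155. The genes were Jarid2, Ezh2, Ezh1, Eed, Suz12, Rbbp4, Rbbp7, Phf19 and Mtf2, and all 25 probe sets whose platform annotation gives 1 of these 9 symbols were used, of 22626 probe sets on the array other than controls. The study compared 3 miR-155 knockout (KO) and 3 wild-type (WT) mice, all labelled C57BL/6, with 1 array per mouse per the series description. The CD4 T cells came from lymph nodes and spleen and were isolated on magnetic beads, and both genotypes were activated in the same way, with CD3 and CD28 antibodies (1 µg/mL) plus interleukin 2 (20 U/mL) over 3 days of culture. The labels give neither the age of the mice nor which part of the locus was removed. The whole culture was measured, so a lower level per cell and fewer cells that make a transcript cannot be told apart.

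PRC2 places methyl groups on lysine 27 of histone H3, a mark of silenced genes. EZH2 or its relative EZH1 carries the enzymatic activity, EED binds the finished mark, SUZ12 holds the complex together, and RBBP4 and RBBP7 bind histones. JARID2, which belongs to the Jumonji family of histone demethylases but lacks that activity, and the Polycomb-like proteins MTF2 and PHF19 bring the complex to its sites. EZH2 is abundant in dividing cells, including activated T cells, and EZH1 is the form more prominent in resting cells. Jarid2 is a reported target of miR-155, and in mouse T helper cells JARID2 has been described as a link between miR-155 and Polycomb silencing of cytokine genes.

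The mature strands that the KO cells are labelled as lacking are shown because the seed of the 5p strand, bases 2 to 8 (in capitals), is the part that pairs with target transcripts. They are RefSeq sequences of build GRCm38.p6, from the plus strand of chromosome 16 at chr16:84714143-84714165 for the 5p strand and chr16:84714182-84714202 for the 3p strand.
mmu-miR-155-5p: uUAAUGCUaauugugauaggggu
mmu-miR-155-3p: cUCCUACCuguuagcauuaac
Of the 1738 mature mouse miRNAs in the table used, 0 others carried the seed of the 5p strand. Sites in the Jarid2 transcript were not examined here.

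The host transcript of the microRNA, Mir155hg, had RMA log2 values of 3.51, 3.89 and 4.45 in KO, against 7.69, 6.59 and 8.21 in WT, so every array lay on the side its label gives. RMA (robust multi-array average) values are background-corrected and normalised log2 intensities, and 1 unit is a doubling. The T cell markers Cd3d, Cd3g and Cd28 lay at percentiles 99.0, 98.1 and 97.0 of all probe sets by mean, Cd4 at 79.4 and Zbtb7b at 66.8. The CD8 marker Cd8b1 lay at 60.5, and the B cell markers Cd79b and Ms4a1 at 58.5 and 58.1. Such percentiles do not compare levels of different genes. Cd4 was between 8.83 and 9.25 on all arrays. Of the 7 CD4 T cell markers measured, 6 were higher in KO, with 2 at an unadjusted limma p under 0.05, Cd28 at 0.67 (0.42 without WT replicate 1) and Zbtb7b at 0.48 (0.29 at the lowest with 1 array left out). The natural killer markers Ncr1 and Klra8 stayed between 3.41 and 4.18, below 4.45, the level under which the dimmest 25% of probe sets lie. The CD8 marker Cd8b1 lay between 7.23 and 7.74 on all arrays, and Cd8a between 5.69 and 6.10. The macrophage marker Cd68 measured 7.10, 5.99 and 6.77 in KO and 5.50, 5.82 and 6.64 in WT, a difference of 0.63 (0.39 without KO replicate 1), while Lyz2 stayed between 4.26 and 4.49. Cd68 had the largest difference of the 5 macrophage markers measured, of which 4 were higher in KO, with a median of 0.16. B cell markers were not at that floor, with Ms4a1 from 6.39 to 7.85 on the KO arrays and from 6.55 to 8.22 on the WT arrays. Of the 4 B cell markers measured, 2 were higher and 2 lower in KO. Cd79a differed by 0.08, Cd79b by 0.15, Blk by -0.25 and Ms4a1 by -0.70. The part of other cell types in the differences below was not tested. Xist was high in replicates 1 and 3 of both genotypes and the Y-linked Eif2s3y in replicates 2 and 3, so replicates with the same number match in these transcripts. Both replicate 3 arrays carry both, at 12.59 (KO) and 12.64 (WT) for Xist and 10.05 (KO) and 10.21 (WT) for Eif2s3y, so 1 mouse per array, and with it n = 3 single mice per genotype, is not certain. Over all 22626 probe sets, 0 passed limma's test with Benjamini-Hochberg adjustment (0% called, smallest adjusted p = 0.705), while 1482, or 6.55%, had an unadjusted p under 0.05. Nothing below therefore passed the test over the whole array, and the differences are given as measured, KO minus WT, with limma's standard error.

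Jarid2 was the member with the largest difference, about 2-fold higher in KO, and each of its 3 probe sets showed it. The brightest probe set (1422698_s_at) measured 11.76, 10.98 and 11.51 in KO and 10.07, 10.10 and 10.92 in WT. All 3 KO arrays lay above all 3 WT arrays, but KO replicate 2 and WT replicate 3 were nearly level. The means were 11.41 ± 0.40 in KO and 10.36 ± 0.48 in WT (SD, n = 3 each), a log2 difference of 1.05 ± 0.30 (SE), or 2.07-fold (limma adjusted p = 0.705, unadjusted p = 0.0105). The exact two-sided permutation p was 0.1, the smallest that 3 arrays against 3 can give.

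The other Jarid2 probe sets followed the same order of arrays closely. Probe set 1450710_at measured 11.34, 10.09 and 10.56 in KO and 9.25, 9.54 and 10.01 in WT, again without overlap, with a difference of 1.06 ± 0.35 (SE). Probe set 1422697_s_at measured 10.98, 10.10 and 10.76 in KO and 8.95, 9.03 and 10.10 in WT, with a difference of 1.25 ± 0.37 (SE), and here KO replicate 2 and WT replicate 3 overlapped. Across the 6 arrays the 3 probe sets correlated at Pearson r = 0.945 to 0.998. They are readings of 1 gene on the same arrays and not separate replicates of the genotypes. Of all probe sets on the array, 143, or 0.632%, were higher in KO by a log2 difference of at least 1, and the 3 of Jarid2 are among them.

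The Jarid2 difference was largest in replicate 1. KO minus WT within a replicate number was 1.69, 0.88 and 0.58 in replicates 1, 2 and 3 for the brightest probe set. Same-numbered arrays match in Xist and Y-linked transcripts, but the labels do not say that they were paired. With 1 array left out, the difference lay between 0.88 (without KO replicate 1) and 1.33 (without WT replicate 3). Probe set 1450710_at ranged from 0.72 to 1.35 under the same omissions and 1422697_s_at from 1.05 to 1.62.

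**Figure D1:**
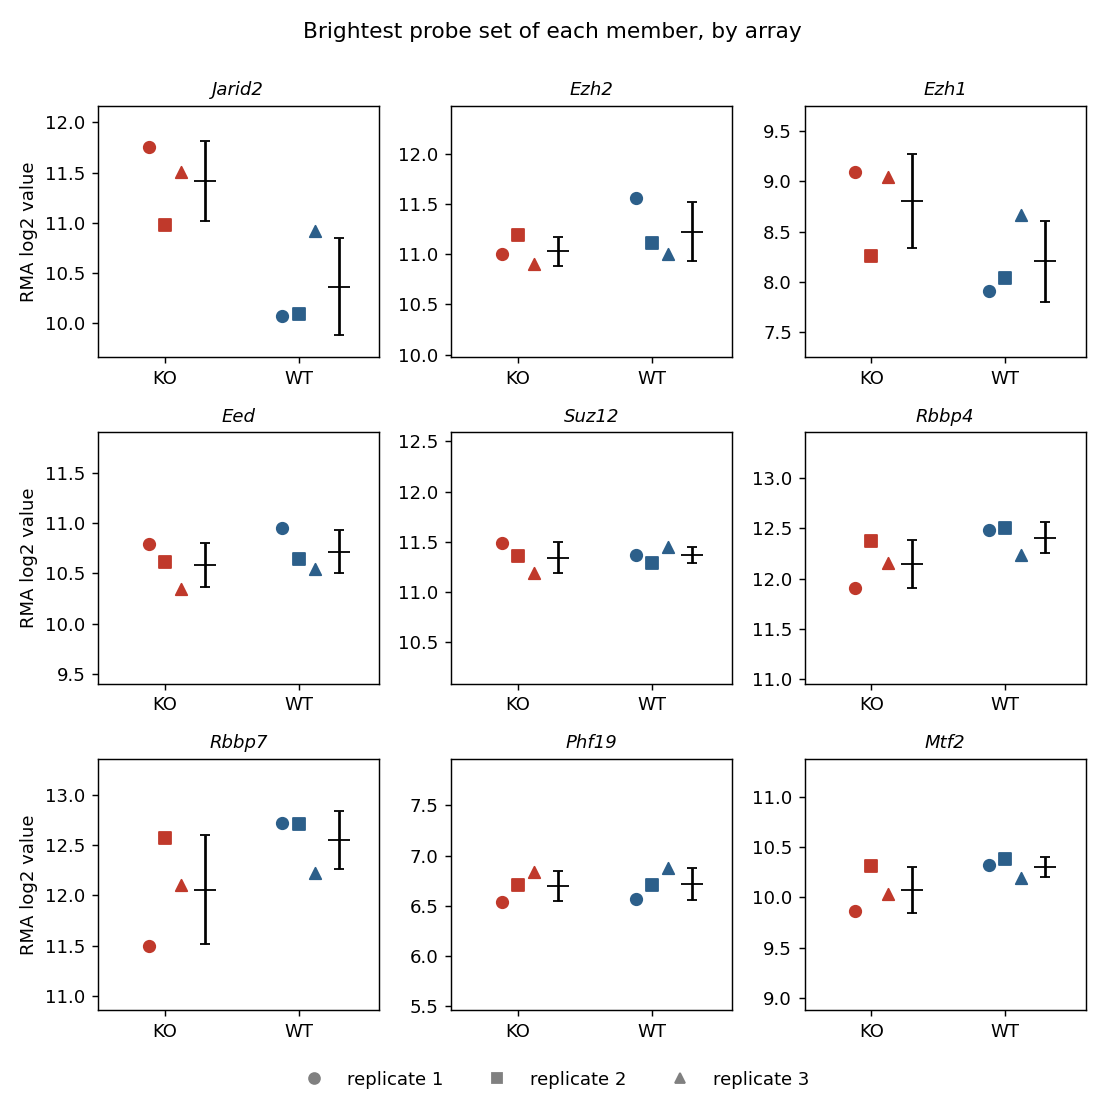
RMA log2 values of the brightest probe set of each of the 9 genes on the KO (red, left) and WT (blue, right) arrays. Each symbol is 1 array, its shape gives the replicate number, the bars are mean and SD (n = 3), and every panel spans the same number of log2 units. Only in the Jarid2 panel do the KO and WT arrays not overlap.

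Of the 2 catalytic subunits, Ezh2 and Ezh1 differed in opposite directions, and neither difference passed. Ezh2, with 1 probe set, measured 11.00, 11.19 and 10.90 in KO and 11.55, 11.11 and 11.00 in WT. WT replicate 1 was the highest and the other arrays overlapped. The difference was -0.19 ± 0.17 (SE), with a limma 95% interval from -0.60 to 0.22, and it was -0.03 without WT replicate 1.

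Ezh1 was higher in KO in its brighter probe set (1449023_a_at), at 9.10, 8.26 and 9.05 in KO against 7.91, 8.04 and 8.66 in WT. KO replicate 2 lay below WT replicate 3. The difference was 0.60 ± 0.29 (SE), or 1.51-fold (limma adjusted p = 0.705, exact permutation p = 0.2), and the dimmer probe set gave 0.67 ± 0.36, which was 0.26 without KO replicate 1. The pattern of Ezh1 over the 6 arrays was close to that of Jarid2, with Pearson r = 0.947 between the brightest probe sets. The arrays of both genotypes enter this value, so it holds the genotype difference as well as the spread within each genotype.

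The balance of Ezh1 to Ezh2 was read within each array, which removes any scaling shared by both probe sets. Relative to the mean of the 6 arrays, Ezh1 minus Ezh2 was 0.72, -0.30 and 0.77 in KO and -1.02, -0.44 and 0.28 in WT. The KO mean exceeded the WT mean by 0.79, with overlap between the genotypes (exact two-sided permutation p = 0.2). The overlap came from KO replicate 2, which lay below WT replicate 3.

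Eed and Suz12 showed small differences. Eed, the subunit that binds methylated lysine 27, measured 10.79, 10.61 and 10.35 in KO and 10.95, 10.65 and 10.54 in WT, a difference of -0.13 ± 0.16 (SE) with a 95% interval from -0.52 to 0.26, which was -0.01 without WT replicate 1 and -0.02 without KO replicate 3. Its other probe set lay between 3.41 and 3.90 on all arrays, at the dim end of the array, and no difference can be read from it. Suz12, the scaffold, measured 11.49, 11.36 and 11.19 in KO and 11.37, 11.28 and 11.45 in WT in its brightest probe set, a difference of -0.02 ± 0.11 (SE) with a 95% interval from -0.30 to 0.25. That interval excludes a difference of the size measured for Jarid2.

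The 6 probe sets of Suz12 ranged from -0.24 to 0.14, 5 lower and 1 higher in KO. The higher one (1420020_at) was also the only 1 of the 6 without overlap, at 7.00, 6.94 and 7.02 in KO against 6.91, 6.80 and 6.83 in WT, a difference of means of 0.14. It ran against the others over the arrays, with r from -0.849 to -0.117, so the probe sets of this gene do not agree on a direction.

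Rbbp4 and Rbbp7, closely related histone-binding proteins that also serve other chromatin complexes, were lower in KO in all 5 of their probe sets. Rbbp7 measured 11.49, 12.58 and 12.10 in KO and 12.72, 12.72 and 12.22 in WT in its brightest probe set (1456227_x_at). KO replicate 1 was the lowest, and KO replicate 2 lay above WT replicate 3. The difference was -0.50 ± 0.29 (SE), or 1.41-fold lower in KO (limma adjusted p = 0.705, exact permutation p = 0.2), and -0.22 without KO replicate 1. The second probe set gave -0.49.

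Rbbp4 measured 11.90, 12.38 and 12.16 in KO and 12.49, 12.51 and 12.23 in WT, a difference of -0.26 ± 0.15 (SE), which was -0.14 without KO replicate 1. Its other probe sets gave -0.30 and -0.36. The brightest probe sets of both genes carry the suffix that Affymetrix uses where some probes may also bind related sequences, so their signal may not be wholly their own. Rbbp7 lies on the X chromosome, and Xist measured 13.35, 5.94 and 12.59 in KO and 13.08, 5.66 and 12.64 in WT. In KO the array with low Xist had the highest Rbbp7, and in WT replicates 1 and 2 had the same Rbbp7 with high and low Xist. The part of sex in the Rbbp7 difference was not tested.

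Of the Polycomb-like subunits, Mtf2 measured 9.86, 10.32 and 10.04 in KO and 10.32, 10.39 and 10.19 in WT, a difference of -0.23 ± 0.14 (SE) that was -0.12 without KO replicate 1 and -0.35 without KO replicate 2. All 4 of its probe sets were lower in KO, by -0.27 to -0.09, and all overlapped between the genotypes. Phf19 had 2 dimmer probe sets that disagreed. The brighter one measured 6.54, 6.71 and 6.84 in KO and 6.57, 6.71 and 6.88 in WT, a difference of -0.02 ± 0.13 (SE), and the other (1427920_at) 5.58, 6.02 and 5.97 in KO and 6.32, 6.18 and 6.04 in WT. In the second every KO array was below every WT array, with a difference of -0.32 ± 0.15 (limma adjusted p = 0.705, exact permutation p = 0.1), or -0.19 without KO replicate 1.

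**Figure D2:**
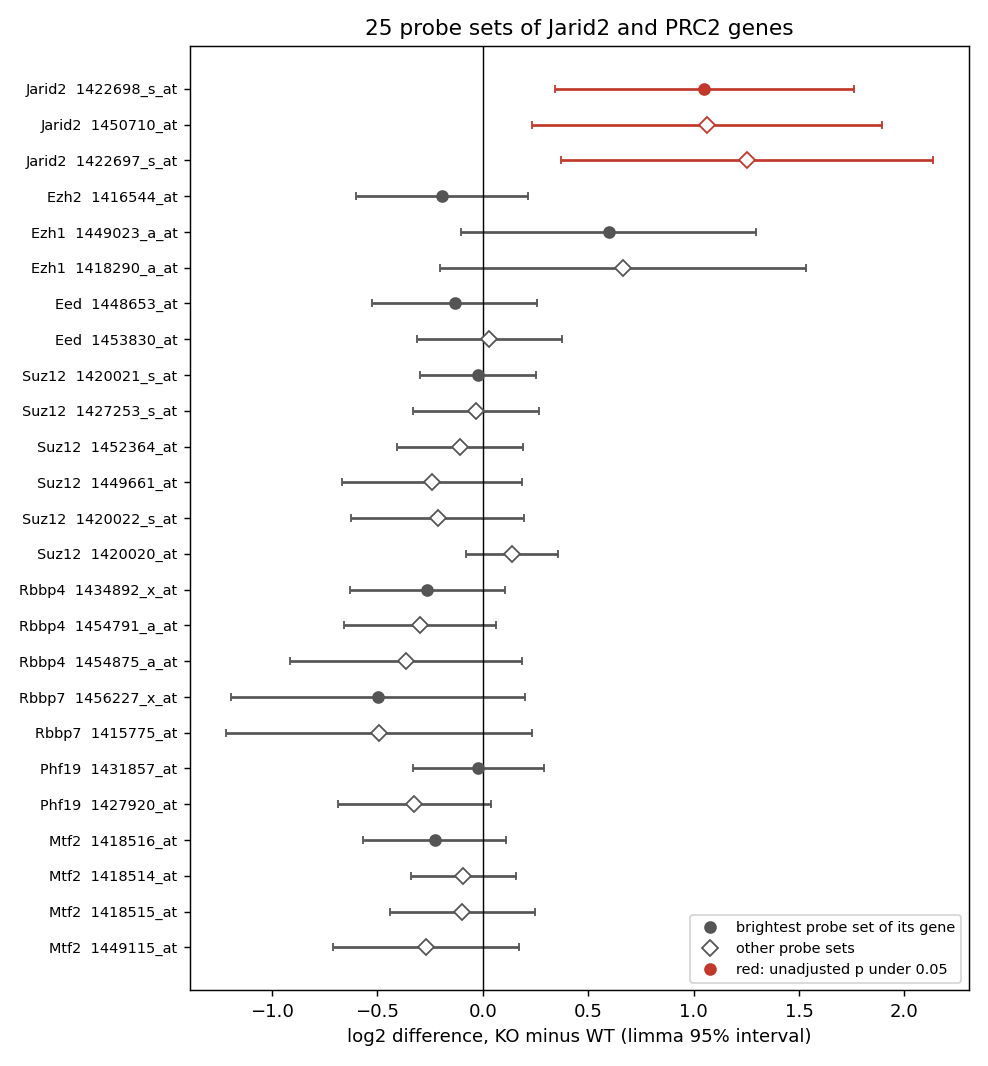
Log2 difference, KO minus WT, of all 25 probe sets, with limma 95% intervals. Filled circles are the brightest probe set of each gene, open diamonds the others, and red marks an unadjusted p under 0.05. The 3 Jarid2 probe sets lie between 1.05 and 1.25 with intervals above 0, and the other 22 lie between -0.50 and 0.67 with intervals that cross 0.

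Over the 25 probe sets, 7 were higher in KO and 18 were lower, and their median was -0.11, against a median of 0.00216 over all probe sets. The 7 higher ones were the 3 of Jarid2, the 2 of Ezh1 and 1 each of Eed and Suz12. An unadjusted p under 0.05 was found for 3 of 25, all of Jarid2 and all higher in KO, where 6.55% of the whole array had one (3.22% higher and 3.33% lower in KO). The genotypes did not overlap in 4 of 25, where 11.7% of the whole array did not (5.89% with KO above WT and 5.83% with KO below). These were 2 of Jarid2 and 1 of Suz12 with KO above, and 1 of Phf19 with KO below. Apart from Jarid2, 0 of 22 probe sets had an unadjusted limma p under 0.05. Of the Jarid2 probe sets, 1450710_at lost that p without WT replicate 1 or 2. Without variance moderation the count was 2, as Jarid2 kept it in its brightest probe set alone and Suz12 1420020_at gained it. The count for the 25 was 11 without KO replicate 2, 5 without WT replicate 3 and 14 with arrays weighted by quality. The added ones were among Ezh1, Rbbp4, Rbbp7, Mtf2 and, with weights, Suz12, while the count over the whole array was 3100, 2755 and 5283 in those settings.

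Jarid2 was next set against the core subunits within each array. Jarid2 minus Suz12, relative to the mean of the 6 arrays, was 0.74, 0.09 and 0.78 in KO and -0.83, -0.72 and -0.06 in WT. The difference between genotypes was 1.07, and every KO array lay above every WT array (exact two-sided permutation p = 0.1, the smallest possible). Suz12 itself differed by only -0.02, so this value largely repeats the Jarid2 difference of 1.05 on the same arrays and is not separate support. Jarid2 minus Ezh2 was 0.99, 0.03 and 0.84 in KO and -1.25, -0.78 and 0.16 in WT, and Jarid2 minus Eed 0.72, 0.13 and 0.92 in KO and -1.12, -0.79 and 0.14 in WT. These differed by 1.24 and 1.18 between genotypes, each with exact p = 0.2, since WT replicate 3 was level with or above KO replicate 2.

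Proliferation genes varied over the arrays together with several members. All 24 measured genes of a list of replication and mitosis genes were lower in KO, with a median of -0.60 (-0.31 without KO replicate 1). Of these, 6 had an unadjusted limma p under 0.05. Over the brightest probe sets of all 12393 genes, 865 had one, 409 higher and 456 lower in KO. Bub1, a kinase of the mitotic checkpoint, differed by -0.37, Tk1, a thymidine kinase of DNA synthesis, by -0.59 (-0.40 without KO replicate 1), Aurkb, a mitotic kinase, by -0.49 (-0.32 without it) and Mcm5, a subunit of the replicative helicase, by -0.67. Their mean, relative to the 6 arrays, was -0.80, 0.10 and -0.14 in KO and 0.37, 0.31 and 0.15 in WT. The lowest array of this list, KO replicate 1, was also the lowest for Rbbp4, Rbbp7 and Mtf2 and the highest for Jarid2 and Ezh1. KO replicate 2 and WT replicate 3 had similar means of the list (0.10 and 0.15) and similar Jarid2 values (10.98 and 10.92). They are 2 single arrays, and the part of proliferation in the differences of the members was not tested.

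**Figure D3:**
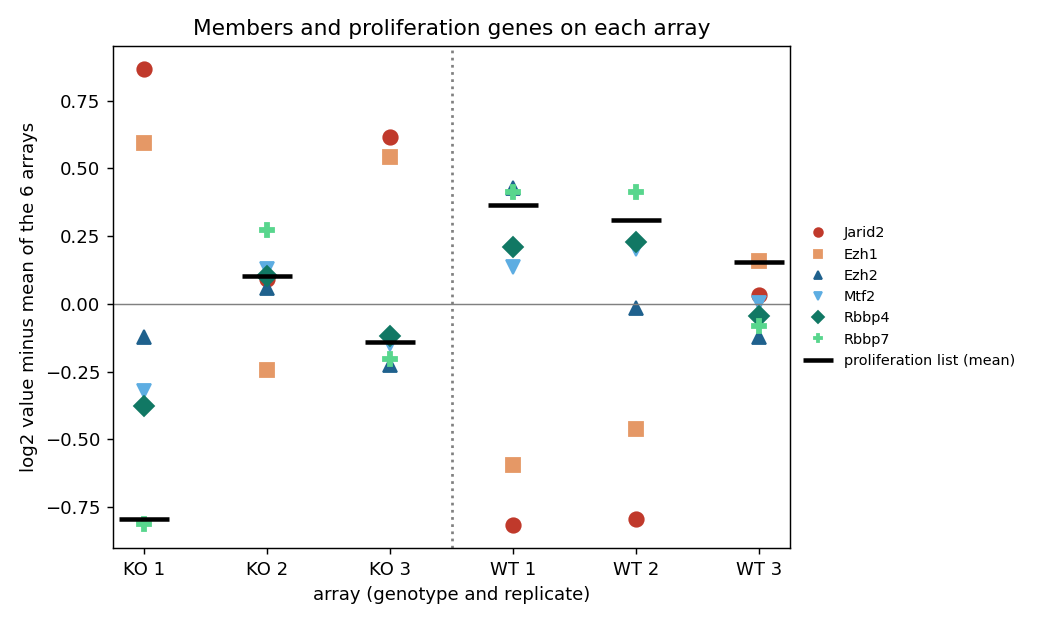
Log2 value minus the mean of the 6 arrays for 6 members (symbols) and for the mean of 24 proliferation genes (black bars), on the KO arrays (left of the dotted line) and the WT arrays (right). KO replicate 1 has the highest Jarid2 and the lowest Rbbp7 and proliferation values, and WT replicates 1 and 2 have the lowest Jarid2 and Ezh1 values.

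Because Ezh2 is a known target of the E2F factors that drive the cell cycle, promoter windows of the members were searched on both strands. The windows ran from 250 bases before to 50 after an annotated start (RefSeq, GRCm38.p6). The E2F-type letters searched for were TTTCCCGC, TTTGGCGC, TTTCGCGC and TTTGCCGC. For Ezh2 and Phf19 the start used lay inside the gene, whose upstream end is at 47595270 and 34914353. No window was placed at those outer ends. The second window of Jarid2 and that of Mtf2 also lay inside the gene. All 9 genes had a window, 11 in all. A match was held by 3 of these 11 windows (27.3%), in 3 genes, where 2.26% of all 32851 windows held one. The windows were not matched in base composition, and enrichment was not tested. The stretches are shown, match in capitals, because these are the members whose windows hold the letters, from chr6:47595011-47595053 (minus strand), chr11:79992861-79992920 (plus strand) and chr2:34914151-34914210 (minus strand, match on the opposite strand).
Ezh2: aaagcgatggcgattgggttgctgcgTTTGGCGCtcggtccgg
Suz12: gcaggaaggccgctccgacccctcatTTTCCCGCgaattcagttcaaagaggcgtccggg
Phf19: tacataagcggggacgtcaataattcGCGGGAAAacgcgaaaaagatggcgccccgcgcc
The windows of Jarid2, Ezh1, Eed, Rbbp4, Rbbp7 and Mtf2 held none of these letters. A match describes the sequence and is not evidence of binding in these cells.

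Genes around PRC2 gave a mixed picture, with 0 of any list past the adjusted test. For comparison, 865 of the brightest probe sets of all 12393 genes had an unadjusted limma p under 0.05, 409 higher and 456 lower in KO. Of the same 12393, 719 had all KO arrays above all WT arrays and 776 had all KO arrays below. Of 5 other PRC2 accessory genes, 4 were higher in KO. Lcor, whose locus also encodes a PRC2-binding protein, was 5.95 ± 0.13 in KO and 5.47 ± 0.29 in WT (SD, n = 3 each), the 1 gene of the list at an unadjusted limma p under 0.05. Of 16 genes of Polycomb repressive complex 1, which ubiquitylates histone H2A, 7 were higher and 9 were lower (median -0.05), with 0 at an unadjusted limma p under 0.05. The smallest p values there were of Pcgf2, at -0.26 with all KO arrays below all WT arrays (-0.16 without WT replicate 3), and Cbx7, which reads methylated lysine 27, at 0.40 (0.25 at the lowest with 1 array left out).

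Of 6 genes that encode lysine 27 demethylases or Jumonji relatives of JARID2 with lysine 4 demethylase activity, 5 were higher in KO and 0 had an unadjusted limma p under 0.05. Kdm5a differed by 0.43 and Kdm5b by 0.47, which were 0.25 and 0.17 without KO replicate 1. The Y-linked relatives Kdm5d and Uty measured 3.41 and 4.27 on KO replicate 1 and 2.99 and 4.51 on WT replicate 1, and at least 5.72 on the other arrays, so they differed between replicates far more than between genotypes (0.22 and 0.16).

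The opposing trithorax and COMPASS genes, a list built around methylation of lysine 4, split evenly, 5 higher and 5 lower of 10. An unadjusted limma p under 0.05 was found for 3, 1 higher and 2 lower in KO. Ash2l, a shared COMPASS subunit, measured 8.83, 8.86 and 8.80 in KO and 9.27, 9.19 and 9.00 in WT, a difference of -0.32 without overlap. Dpy30, its partner, differed by -0.55 and Kmt2e by 0.45. Of 15 genes of other complexes that use RBBP4 or RBBP7, 3 had an unadjusted limma p under 0.05, all lower in KO. These were Chaf1b, of the chromatin assembly factor that works at the replication fork, at -0.71 (-0.46 without KO replicate 1), Hat1, a histone acetyltransferase for new histones, at -0.67, and Mbd3, of the NuRD complex, at -0.35.

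Genes reported to be under Polycomb control in T cells did not move one way. Of 19 listed, Il22 and Tcf7 were not measured. Of the 17 measured, 10 lay higher in KO and 7 lower. Their median was 0.23 (0.08 without KO replicate 1), and 4 had an unadjusted limma p under 0.05, 2 in each direction. Over all 12393 genes, 865 had one. Prdm1, which encodes the repressor Blimp-1, measured 8.68, 7.51 and 8.03 in KO and 6.15, 6.48 and 7.27 in WT, a difference of 1.44 ± 0.38 (SE) without overlap. Bcl6, its antagonist, differed by 1.59 (0.93 without WT replicate 1). On the lower side, Ifng, the interferon gamma gene, measured 6.32, 7.35 and 6.87 in KO and 8.48, 8.32 and 7.23 in WT, a difference of -1.17 ± 0.40 (SE).

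The cytokine gene Il9, described in mouse T helper cells as silenced through JARID2 when miR-155 is absent, measured 5.02, 4.90 and 4.75 in KO and 7.29, 5.24 and 5.72 in WT. Every KO array lay below every WT array, with a difference of -1.20 that was -0.60 without WT replicate 1. By mean Il9 lay at percentile 39.0 of all probe sets, and RMA compresses differences near background. Others of that description were Atf3 at -0.72 (-1.24 to -0.39 with 1 array left out, the first without KO replicate 1) and Il10 at 0.76 (0.15 to 1.42, the first without KO replicate 1). Neither had an unadjusted limma p under 0.05, and both were chosen for mention after their values were seen.

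**Figure D4:**
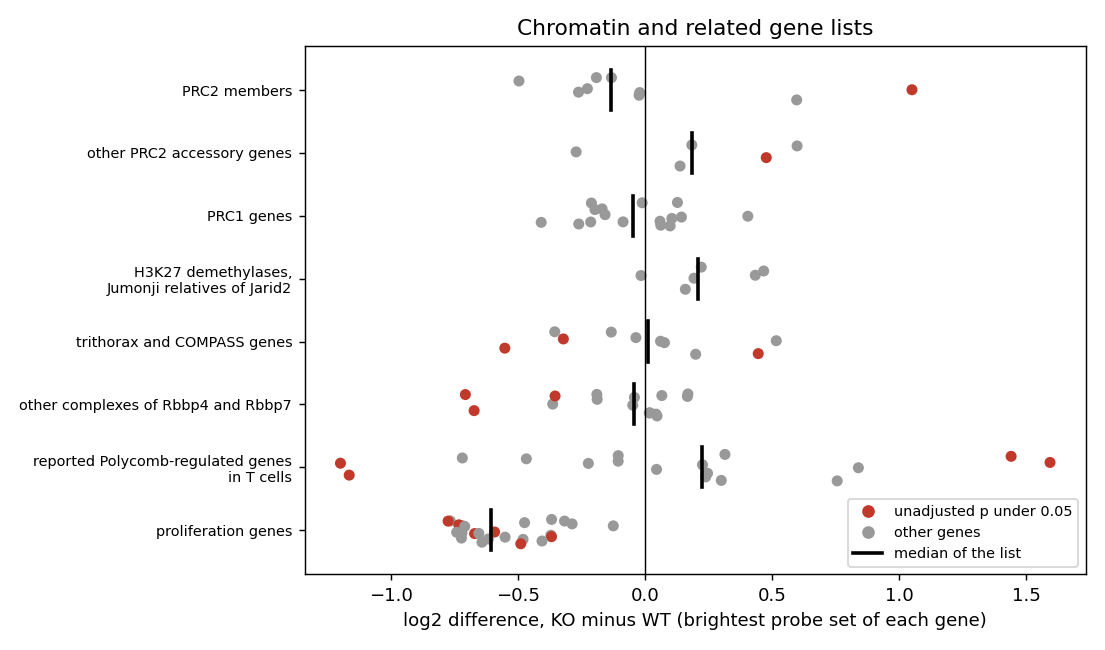
Log2 difference, KO minus WT, of the brightest probe set of each gene in 8 lists, with 1 point per gene, red at an unadjusted limma p under 0.05, and black bars at the median of each list. The proliferation genes all lie below 0, and the genes reported to be under Polycomb control spread from -1.20 to 1.59.

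The genes whose pattern over the 6 arrays was most like that of Jarid2, among 9293 genes outside the dimmest 25%, were Chm, Chd7, Il1r2, Ccdc71l and Vps54, with Pearson r from 0.991 to 0.998. Their KO minus WT differences were 0.72, 1.12, 2.38, 1.13 and 0.94. For Ezh2 they were Mfsd3, Rdx, Usp16, Chst10 and Slc25a46, with r from 0.989 to 0.995 and differences between -0.18 and -0.08. With 6 arrays and so many genes, such values describe these arrays only. Among the members, Rbbp4, Mtf2 and Rbbp7 ran opposite to Jarid2 (r = -0.928, -0.898 and -0.891), and Suz12 had r = 0.151 with it.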

How the data were processed

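Per the submitters' processing notes, the authors used RMA and affy, and the values they deposited are RMA log2 values. Software versions are not stated there. RMA compresses differences near background, and values of different probe sets are not comparable as levels. Of 22690 probe sets, 64 controls were left out. GEO's platform annotation gave 20380 of the rest 1 gene symbol, 691 several and 1555 none. No detection calls were used, and the number of arrays limits precision.

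The genotypes were contrasted in limma 3.58.1 under R 4.3.3 (lmFit, eBayes, two-sided, Benjamini-Hochberg over 22626 probe sets, no filter, threshold 0.05). In simulated data for this comparison, over 22626 probe sets, limma recovered 53.0%, 86.5% and 94.0% of 200 probe sets changed by 1, 2 and 3 log2 units. The simulated noise was independent between probe sets, without variation shared over an array. These rates therefore check the procedure and do not give the share of real changes it would find here. For the lists, the probe set with the highest mean stood for a gene. Named were all probe sets of the members and of Mir155hg, sex-linked genes, up to 4 genes per list with unadjusted p under 0.05 (otherwise the 2 smallest p), and the 5 genes most like Jarid2 and Ezh2. The members and lists were chosen with earlier results of these data known.

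Alternatives were a replicate block, each array left out, median centring, further quantile normalization, leaving out the lowest 25%, 1 probe set per gene, the mean of all probe sets, trend and robust settings, array weights, no moderation and an adjusted p under 0.1.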

Additional observations from a re-analysis of the deposited data

How the results depend on the processing

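No setting gave a probe set with adjusted p under 0.05. The threshold of 0.1 was counted only in the main limma fit, which gave 0. The count with an unadjusted p under 0.05, 1482 over all 22626, was 691 with 1 probe set per gene and the lowest 25% left out, 865 with the mean of all probe sets and 5283 with array weights, and from 680 to 3100 with 1 array left out. That of the members, 3, was 1, 1 and 14 in the same settings, the first 2 having 1 value per gene, and from 2 to 11 with 1 array left out. Jarid2's brightest probe set stayed higher in KO in every setting, between 0.88 and 1.33. Of the 25 member probe sets, 20 kept their sign in every setting they entered and 5, all with differences near 0, did not. With array weights Eed 1453830_at was at -0.0897 and Phf19 1431857_at at 0.0764. With 1 array left out, Eed 1453830_at ranged from -0.109 to 0.136 (negative without WT replicate 3), Suz12 1420021_s_at from -0.0959 to 0.0542 and 1427253_s_at from -0.131 to 0.0447 (both positive without KO replicate 3 or WT replicate 3), Phf19 1431857_at from -0.0965 to 0.0591 (positive without KO replicate 1 or WT replicate 3) and Mtf2 1418515_at from -0.204 to 0.00107 (positive without KO replicate 1). The cause was not tested. Same-numbered arrays deviated together in replicates 2 and 3 (r = 0.593 and 0.362) but not in replicate 1 (r = -0.00776), and KO replicate 1 with WT replicate 3 did as well (r = 0.359), so the numbers were not taken as pairs. With the replicate block the unadjusted count was 2052 over all and 4 for the members, Ezh1 joining Jarid2, and Jarid2 was at 1.05 (limma adjusted p = 0.529).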
